A study of Mus musculus with 28 samples.

Results

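The guard-hair dermal papilla was compared with the papilla of the other pelage hair types in sorted cells of mouse back skin. The comparison set the 2 libraries of the guard papilla (G-DP) against the 2 libraries of the awl, auchene and zigzag papilla (AA/ZZ-DP). Its members were the genes with at least 1 FPKM (fragments scaled for transcript length and library size) in at least 2 of these 4 libraries. This rule kept 12567 of the 23015 genes of the table, and of the 15052 genes tested over all libraries. Of the members, 10622 reached 1 FPKM in all 4 libraries, 150 passed only through both G-DP libraries and 191 only through both AA/ZZ-DP libraries.

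The series holds 28 RNA-seq libraries, 2 from each of 14 populations sorted from back skin at postnatal day 5. All carried the Lef1-RFP reporter on a background that mixed FVB/N, C57BI/6J and CD1. Both compared groups came from dermal preparations of animals that also carried Crabp1-GFP. G-DP cells were sorted as GFP negative (Crabp1-GFP-/Lef1-RFP+/ITGA9Hi) and AA/ZZ-DP cells as GFP positive (Crabp1-GFP+/Lef1-RFP+/ITGA9Hi), so the guard identity of G-DP rests on the absence of a reporter. A separate line with Sox2-GFP gave guard plus awl and auchene papilla (G/AA-DP, GFP positive) and zigzag papilla (ZZ-DP, GFP negative), and a further pair of libraries (DP) held papilla not split by hair type. Melanocytes (Mc) were sorted as Lef1-RFP+ and CD117+ from dermal preparations of a K14-H2BGFP line, with no GFP or ITGA9 gate given. Nothing in the labels ties a replicate to its own animals, so p-values measure the spread between these samples, which may be technical.

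The dermal papilla is the cluster of specialized fibroblasts at the base of each hair follicle, and it sends FGF, BMP, Wnt-modulating and other signals to the epithelial matrix that builds the hair shaft. Mouse pelage has guard, awl, auchene and zigzag hairs, whose follicles arise in successive waves around birth. Melanocytes lie in the hair matrix directly around the papilla, and the papilla itself makes signals that act on them.

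In the 4 compared libraries 11826 to 12342 genes reached 1 FPKM. The second G-DP library stood apart from the other papilla libraries. Its Pearson correlation with the first G-DP library, across genes on the log2(FPKM + 1) scale, was 0.884, and its correlations with all 9 other papilla libraries lay between 0.833 and 0.891, whereas the 2 AA/ZZ-DP libraries correlated at 0.928. In the first G-DP library the 45S ribosomal RNA precursor Rn45s was listed at 23369 FPKM, against 1363 FPKM in the second and 0 in the other 26 libraries. An exact 0 in this table can be a failed estimate and is given below as "listed at 0".

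The genes that name the gate came first. Crabp1 (chromosome 9, 54764748 to 54773110, GRCm38.p6), a carrier of retinoic acid inside the cell, stood at 629.8 and 420.9 FPKM in G-DP and at 1866 and 1150 FPKM in AA/ZZ-DP. Both G-DP libraries lay below both AA/ZZ-DP libraries, in the direction of the gate. The log2(FPKM + 1) difference of -1.51 ± 0.72 (SE) did not pass the test (adjusted p = 0.597). The other papilla libraries spread from 545.4 to 1426 FPKM of Crabp1, both ends being ZZ-DP libraries. Here and below, a difference is G-DP minus AA/ZZ-DP, its SE comes from limma fitted over all 28 libraries, and adjusted p is Benjamini-Hochberg over the 15052 genes. A gene is called when the adjusted p is below 0.05 and the difference is at least 1 in size, and the added 1 FPKM shrinks the differences of low genes. The sorting antigen gene Itga9 was at 115.8 and 72.4 FPKM in G-DP and at 126.7 and 120.9 FPKM in AA/ZZ-DP (difference -0.43 ± 0.50, adjusted p = 0.939). Lef1, the Wnt-responsive transcription factor behind the shared RFP gate, overlapped between the groups, with 105.6 and 92.9 FPKM against 110.3 and 81.0 FPKM (0.07 ± 0.42, adjusted p = 1).

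Of the members, 62 were called higher in G-DP and 13 lower. As background, percent called was 0.412 higher and 0.093 lower over all genes tested, and 0.493 and 0.103 over the members. Of the 62, 25 had both AA/ZZ-DP values under 1 FPKM, and of the 13, 12 had both G-DP values under 1 FPKM. These genes passed the filter on low values only through the group where they are high. Leaving out single libraries moved these counts widely: they were 120 higher and 110 lower without the first G-DP library, 18 and 3 without the second, 24 and 13 without the first AA/ZZ-DP library, and 13 and 0 without the second (limma, 325 higher and 394 lower at an unadjusted p below 0.05). Of the 62 genes called higher, 53, 14, 21 and 13 were called again in these 4 fits, and of the 13 called lower 9, 0, 3 and 0. A fit on the 10 papilla libraries called 4 higher and 0 lower (limma, 374 and 459 at an unadjusted p below 0.05, against 505 and 622 over all libraries), and a fit on the 4 compared libraries called 0 and 2 (287 and 403). Without replicate overlap, that is with both G-DP libraries on one side of both AA/ZZ-DP libraries, 1524 members (12.1%) were higher and 2532 (20.1%) lower. The median difference was -0.08 over the members and -0.06 over all genes tested.

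The largest differences called higher were those of Rn45s and the microRNA gene Mir669i, both listed at 0 in Mc, and many other calls were genes of the pigment cell. Kit (chromosome 5, 75574987 to 75656722), which encodes the receptor CD117 used to sort Mc, was at 95.7 and 170.3 FPKM in G-DP and at 4.50 and 5.46 FPKM in AA/ZZ-DP. All G-DP values lay above all AA/ZZ-DP values, by 4.43 ± 0.56 on the log2 scale (adjusted p = 0.000317). Kit averaged 733.6 FPKM in Mc. Mc1r, the melanocortin receptor that sets pigment type, was at 53.5 and 54.0 FPKM against 1.53 and 0.99 FPKM (difference 4.61 ± 0.58, adjusted p = 0.000317). Slc45a2, a melanosome membrane transporter, was at 140.6 and 217.7 FPKM against 5.09 and 3.71 FPKM (5.04 ± 0.78, adjusted p = 0.00286). The neuropeptide gene Npy was at 376.2 and 341.4 FPKM against 12.6 and 2.96 FPKM (5.62 ± 1.14, adjusted p = 0.026). Lmo2, a LIM-domain transcriptional cofactor, was at 35.2 and 61.4 FPKM against 0.48 and 0.12 FPKM (5.20 ± 0.65, adjusted p = 0.000317). Kit, Mc1r, Slc45a2, Npy and Lmo2 were each higher still in Mc, where Npy averaged 2061 FPKM and Lmo2 158.6 FPKM.

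Transcription factors of the melanocyte lineage were among the calls. Mitf, which drives pigment genes, was at 26.5 and 29.5 FPKM in G-DP, 2.81 and 3.64 FPKM in AA/ZZ-DP and 244.9 FPKM in Mc (2.78 ± 0.54, adjusted p = 0.0197). Pax3, a neural crest factor upstream of Mitf, was at 6.33 and 10.6 FPKM against 0.09 and 0.18 FPKM (3.03 ± 0.44, adjusted p = 0.00157). Tfap2b, an AP-2 factor of the neural crest, was at 35.4 and 47.6 FPKM against 3.07 and 5.01 FPKM (3.09 ± 0.35, adjusted p = 0.000125). Mc held 72.7 FPKM of Pax3 and 229.7 FPKM of Tfap2b, so both were higher there than in G-DP. Tfap2b was not particular to Mc. The populations labelled ORS, Neg, Mx and Epi, at 57.5, 55.8, 51.8 and 50.1 FPKM, were above both G-DP libraries, and those labelled DF and TAC, at 33.0 and 26.7 FPKM, below both. Npnt, the matrix protein nephronectin, was the single call among 26 basement membrane and proteoglycan genes. It was at 13.1 and 14.2 FPKM against 1.59 and 0.90 FPKM (2.72 ± 0.30, adjusted p = 8.87e-05), and it too was higher in Mc, at 50.0 FPKM. ORS, Epi and Neg, at 30.5, 24.3 and 18.3 FPKM of Npnt, were also above G-DP, and Mx, DF and TAC, at 10.9, 9.59 and 7.61 FPKM, below it.

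All 16 genes of a melanocyte marker list were higher in both G-DP libraries than in both AA/ZZ-DP libraries, and 9 of the 16 were called: Mlana, Tyr, Slc45a2, Trpm1, Mc1r, Gpr143, Slc24a5, Mitf and Sox10. Their summed level was 1374.1 and 1494.3 FPKM in G-DP, 78.1 and 100.8 FPKM in AA/ZZ-DP, and 18241.6 FPKM in Mc. Expressed as a percentage of the Mc mean, the median marker stood at 8.92% (1.15% to 17.45%) in the first and 10.81% (2.96% to 19.98%) in the second G-DP library. In AA/ZZ-DP the median was 0.37% and 0.42%. None of the 16 markers was listed at 0 in G-DP. The Sox2-GFP line showed the same kind of difference between its own replicates: the median was 5.77% in the second ZZ-DP library and 0.27% in the first, and 0.82% and 0.46% in G/AA-DP. In these bulk samples, more cells of a type and more RNA per cell cannot be told apart.

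**Figure D1:**
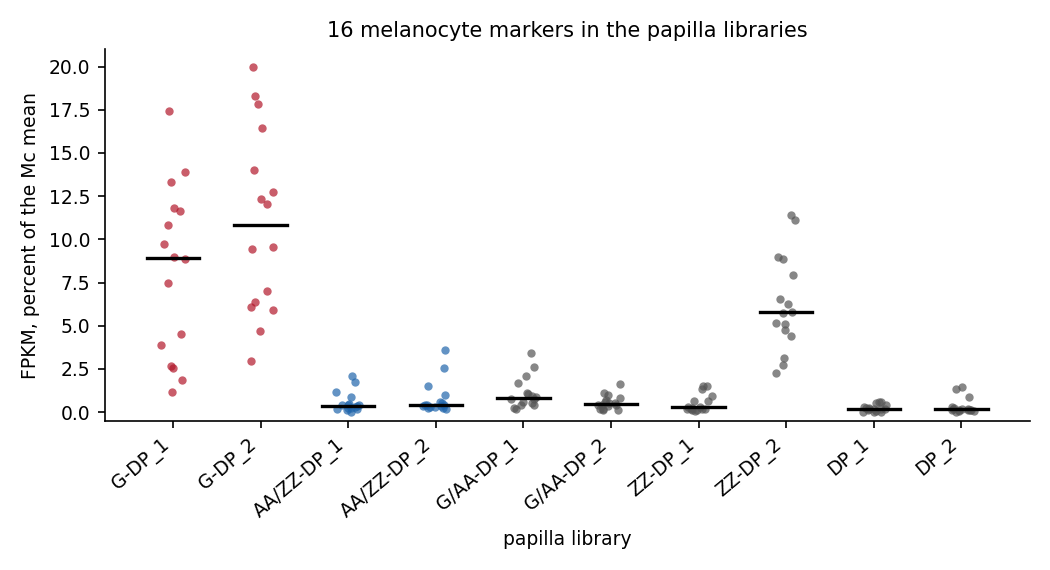
The 16 melanocyte markers in the 10 papilla libraries. Each point is 1 marker's FPKM as a percentage of its mean in Mc (vertical axis), each column is 1 library and the bar is the median. Both G-DP libraries (medians 8.92% and 10.81%) and the second ZZ-DP library (5.77%) lie above the other papilla libraries, whose medians are between 0.16% and 0.82%.

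A set of 3 called genes carries in the promoters the letters that the melanocyte transcription factor MITF is known to bind, and the sequences are shown so that the element can be read in place. They are Tyr, which encodes the rate-limiting enzyme of melanin synthesis, the melanocyte channel gene Trpm1, and Slc7a11, which imports cystine for red-yellow pigment. Each line gives the 300 bases of a RefSeq promoter entry around its transcript start (GRCm38.p6), 5′ to 3′ on the gene's own strand, with the heptamer TCATGTG in capitals.
Tyr, chr7:87493463-87493762, minus strand: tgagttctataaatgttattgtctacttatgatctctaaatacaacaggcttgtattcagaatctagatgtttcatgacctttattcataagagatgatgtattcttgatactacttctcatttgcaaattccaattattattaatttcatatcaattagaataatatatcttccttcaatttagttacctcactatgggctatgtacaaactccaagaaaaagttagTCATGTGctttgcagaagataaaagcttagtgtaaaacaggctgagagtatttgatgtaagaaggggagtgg
Trpm1, chr7:64153585-64153884, plus strand: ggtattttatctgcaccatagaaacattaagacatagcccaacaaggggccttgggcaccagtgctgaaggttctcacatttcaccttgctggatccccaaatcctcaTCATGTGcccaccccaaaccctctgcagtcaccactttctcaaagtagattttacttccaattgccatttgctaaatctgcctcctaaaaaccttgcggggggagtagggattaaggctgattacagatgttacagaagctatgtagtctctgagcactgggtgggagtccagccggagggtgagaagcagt
Slc7a11, chr3:50443564-50443863, minus strand: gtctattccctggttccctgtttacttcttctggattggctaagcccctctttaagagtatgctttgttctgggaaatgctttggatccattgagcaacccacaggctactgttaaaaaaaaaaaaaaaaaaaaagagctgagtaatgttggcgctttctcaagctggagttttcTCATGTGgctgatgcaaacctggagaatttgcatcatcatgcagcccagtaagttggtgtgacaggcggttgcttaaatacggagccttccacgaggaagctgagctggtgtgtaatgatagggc

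The capitals begin 22 bases before the start of the Tyr entry, 142 bases before that of Trpm1 and 75 bases before that of Slc7a11. The Slc7a11 entry lies inside the gene's annotated span (chromosome 3, 50364936 to 50499087, minus strand) and not at its outer end, so its start is an internal one. Searched on both strands, TCATGTG was in 6 of the 43 genes called higher that have a promoter entry (14%). It was in 232 of 9259 members (2.51%) and in 4.31% of all 27025 genes with an entry. Counted by entry, it was in 3.77% of all 32851 promoters of that length. Among the melanocyte markers with an entry it was in 6 of 10, and among the genes called lower in 0 of 6. Mc1r, Slc24a5, Trpm1 and Tyr are in both the called and the marker counts. Tyr was at 108.6 and 179.0 FPKM in G-DP, at 6.05 and 8.22 FPKM in AA/ZZ-DP and at 1454 FPKM in Mc (difference 4.12 ± 0.80, adjusted p = 0.0197). Trpm1 was at 60.3 and 128.3 FPKM against 2.85 and 4.86 FPKM (4.23 ± 0.87, adjusted p = 0.0276). Slc7a11 was at 31.1 and 57.4 FPKM against 1.15 and 1.52 FPKM (4.22 ± 0.85, adjusted p = 0.0249). All 3 genes were separated between the groups with no overlap.

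Each gene called higher was then read against its Mc level. For 56 of the 62 the Mc mean was above the G-DP mean, for 56 it was at least 10 times the AA/ZZ-DP mean, and for 53 Mc was the highest of the 7 non-papilla populations sorted from the K14-H2BGFP line. Across classes of Mc level, from lowest to highest, the median difference of the members went up at each step. In the 52 members over 32-fold higher in Mc than in AA/ZZ-DP the median difference was 2.89, 29 were called higher and 100% were higher without overlap. In the 131 members 8- to 32-fold higher in Mc the median was 1.40, 23 were called higher and 86.3% were higher without overlap. In the 8152 members within 2-fold it was -0.08, and in the 520 members over 8-fold lower in Mc it was -0.49, with 48.1% lower without overlap. The AA/ZZ-DP level enters both the class and the difference, so the 2 scales are not independent.

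**Figure D2:**
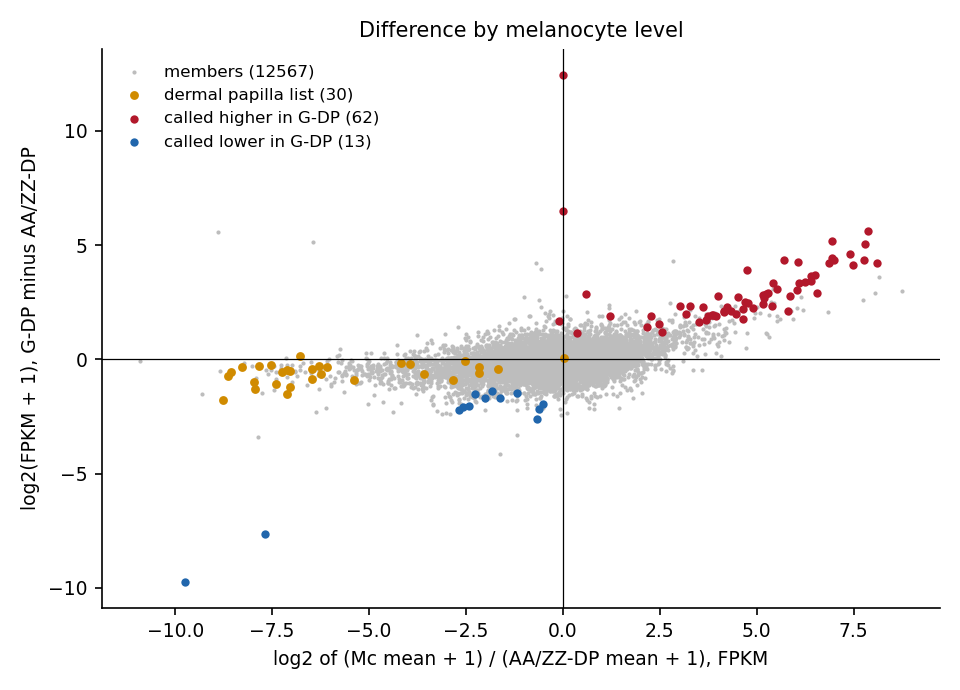
Difference between G-DP and AA/ZZ-DP (vertical axis, log2(FPKM + 1)) against the level in Mc relative to AA/ZZ-DP (horizontal axis, log2 scale) for the 12567 members. Red points (62 genes called higher) lie mostly far to the right, blue points (13 called lower) lie at or left of 0, and the 30 dermal papilla genes (gold) lie mostly left of 0 and slightly below the line.

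Genes high in Mc did not stand at 1 common percentage of their Mc level. Over 75 genes with at least 20 FPKM in both Mc libraries and a Mc mean at least 20 times that of AA/ZZ-DP and of DP, the median was 10.6% and 12.9% in G-DP, and 5.47% in the second ZZ-DP library. The 75 are not all particular to Mc. Malat1, among them, stood at 0.0% in both G-DP libraries and was the highest gene of both DF libraries. The pigment enzyme genes differed among themselves on this scale. Dct was at 2.54% and 2.96% of its Mc level and Tyrp1 at 1.15% and 6.08%, whereas in the second ZZ-DP library they were at 6.55% and 8.98%. Tyr lay the other way, at 7.47% and 12.31% in G-DP and at 5.18% in the second ZZ-DP library. Some genes that are not pigment enzymes were higher on the same scale in G-DP than in the second ZZ-DP library. Fabp7, a fatty-acid binding protein of glial precursors, was at 21.73% and 22.45% of its Mc level in G-DP and at 6.36% in the second ZZ-DP library. Lmo2 was at 22.17% and 38.71% against 0.19%, and Npy at 18.25% and 16.56% against 0.70%. Kit was at 13.04% and 23.21% against 2.83%. The Mc libraries themselves varied for some of these genes (Lmo2 82.2 and 235.0 FPKM), so the percentages carry that spread too. Which cells the RNA came from was not tested.

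**Figure D3:**
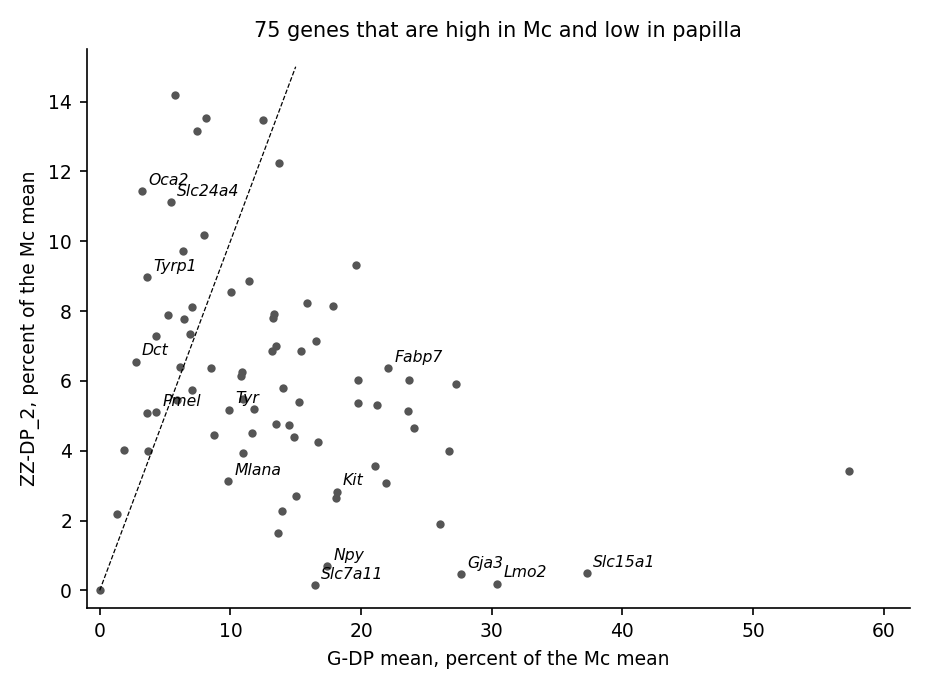
Share of the Mc level reached by 75 genes that are high in Mc and low in papilla, in G-DP (horizontal axis, mean of 2 libraries, percent of the Mc mean) and in the second ZZ-DP library (vertical axis, same unit). The dashed line marks equal shares. Slc15a1, Lmo2, Gja3, Npy and Slc7a11 lie far below it, and Oca2, Slc24a4, Tyrp1 and Dct above it.

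Of 13 Schwann and neural markers, 9 were members and 4 of these were called higher, among them Erbb3, Sox10 and Fabp7. Fabp7 was at 48.6 and 50.2 FPKM in G-DP and at 4.44 and 0.30 FPKM in AA/ZZ-DP (difference 4.24 ± 0.88, adjusted p = 0.0276). Mc also held these genes, with 223.5 FPKM for Fabp7 and 92.3 FPKM for Sox10, the neural crest transcription factor that is on the melanocyte list as well. Ngfr, S100b and Pmp22 of the same list were lower in G-DP without overlap and were not called. The list's sum was 177.9 and 200.2 FPKM in G-DP, 152.5 and 159.2 FPKM in AA/ZZ-DP and 433.0 FPKM in Mc.

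The keratinocyte, smooth muscle and pericyte, and endothelial marker lists had median differences of 0.57, 0.54 and 0.97 over 13, 9 and 4 members. No gene of them was called. Over all members the median was -0.08, and 12.1% were higher without overlap. Keratinocyte markers summed to 260.0 and 545.5 FPKM in G-DP and to 214.1 and 298.3 FPKM in AA/ZZ-DP, with 3 of 13 members higher without overlap, and none called (limma, 1 at an unadjusted p below 0.05). Of 9 smooth muscle and pericyte markers that were members, 5 were higher without overlap and 1, Pdgfrb, was lower. None was called (limma, 3 higher at an unadjusted p below 0.05). The sums of this list were 95.1 and 79.5 FPKM against 84.9 and 69.0 FPKM. Of the 4 endothelial members 3 were higher without overlap and 1, Flt1, was lower. Endothelial markers were low in every papilla library, at 12.6 and 17.2 FPKM in G-DP and 6.2 and 4.1 FPKM in AA/ZZ-DP against 324.1 FPKM in the mixture of cells labelled negative (Neg). None of the leukocyte, mast cell or skeletal muscle markers was a member, and the leukocyte list summed to 0.8 and 3.2 FPKM in G-DP.

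Few genes called higher passed a strict screen on their Mc level. The strict screen kept a gene called higher only if its Mc mean was at or below its AA/ZZ-DP mean. It kept 3 of the 62. They were Rn45s, the microRNA gene Mir669i and Gucy1a3, and all 3 had both AA/ZZ-DP values under 1 FPKM. Subtracting melanocyte RNA and repeating the fit left more calls. At the median marker share 25 of the 62 were called again. At each library's highest marker share, a setting chosen after the data were seen, 18 of the 62 were called again. Among all genes called higher at that highest share, 11 passed the strict screen. Rn45s is listed above, and Mir669i was at 63.1 and 125.5 FPKM in G-DP and listed at 0 in both AA/ZZ-DP libraries. Mir669i belongs to a family of near-identical copies, as does Mir669g, which was listed at 0 in both G-DP libraries and at 244.8 and 165.9 FPKM in AA/ZZ-DP, so the assignment of reads between them is uncertain. Gucy1a3, a subunit of the nitric oxide receptor guanylate cyclase, was at 1.34 and 5.06 FPKM in G-DP and at 0.35 and 0.04 FPKM in AA/ZZ-DP (difference 1.67 ± 0.35, adjusted p = 0.0313). It was low in Mc (0.12 FPKM) and highest in the dermal fibroblast population (DF) at 16.1 FPKM.

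A looser screen, which kept a gene if its Mc mean was at or below its G-DP mean, added Aqp1, Grik1 and the predicted gene Gm3258, making 6. Aqp1, a water channel of red cells and capillaries, was at 7.20 and 9.03 FPKM in G-DP and at 0.51 and 0.06 FPKM in AA/ZZ-DP (2.84 ± 0.57, adjusted p = 0.0242). Its Neg mean was 37.8 FPKM. Grik1, a kainate-type glutamate receptor subunit, was at 3.32 and 2.63 FPKM against 0.11 FPKM and a value listed at 0 (1.91 ± 0.30, adjusted p = 0.00323). Grik1 differed between the Mc libraries, at 0.40 and 2.55 FPKM, and it was the single gene among the 62 that was also higher without overlap in G/AA-DP than in ZZ-DP, at 0.19 and 0.12 FPKM against 0.06 FPKM and a value listed at 0. These Sox2-GFP levels are near 0, and 6 of the 62 were lower without overlap in G/AA-DP.

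The largest differences among genes that pass the strict screen, do not overlap and reach a mean of 5 FPKM in the higher group were then listed whether called or not, leaving out small RNAs, Rn45s, predicted names and joined gene names. Rn45s and Mir669i (higher) and Mir695 and Mir669g (lower), all called, would otherwise be in these lists. On the higher side the first 12 were Krtap22-2, Hsd17b14, Rgs5, Ttc9, Cnfn, Tgm6, Heyl, Tmem42, Mmp23, Ggct, Tmem35 and Entpd1, and none was called (the smallest adjusted p by limma was 0.0502, of Tgm6). For all 12 at least 1 non-papilla population was above AA/ZZ-DP, and for 6 it was above G-DP as well. Over all 12567 members the highest non-papilla population was above the higher of both groups for 8977 and at or below the lower for 2098. Tgm6, a transglutaminase, was at 7.67 and 9.04 FPKM in G-DP, at 1.71 and 1.84 FPKM in AA/ZZ-DP and at 84.4 FPKM in the population labelled TAC, which the labels call matrix progenitors that express Shh. The pericyte gene Rgs5 was at 13.2 and 9.50 FPKM against 2.91 and 1.43 FPKM and averaged 387.7 FPKM in DF (1.98 ± 0.66, adjusted p = 0.327). Heyl, a Notch target gene of smooth muscle, was at 6.86 and 6.83 FPKM against 1.11 and 2.11 FPKM and averaged 29.2 FPKM in DF (1.61 ± 0.39, adjusted p = 0.0906). Over all members with a difference of at least 1 and no overlap, 397 were higher, and 86 of these (21.7%) passed the strict screen. Only 8 of the 86 also had every other non-papilla population at or below AA/ZZ-DP.

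**Figure D4:**
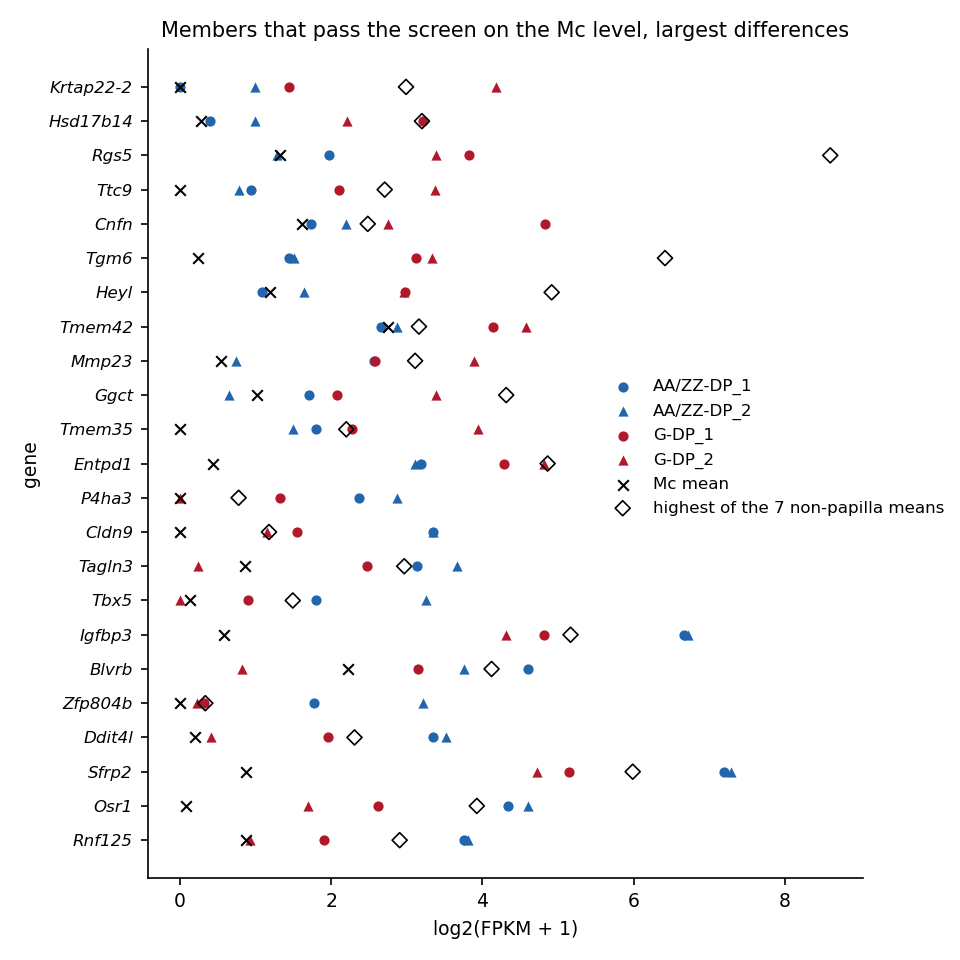
Values of genes with the largest higher and lower differences among members that pass the strict screen, without small RNAs, Rn45s and predicted names, on the log2(FPKM + 1) scale (horizontal axis), for each G-DP and AA/ZZ-DP library, with the Mc mean (cross) and the highest mean of the 7 non-papilla populations (diamond). Diamonds lie right of both blue AA/ZZ-DP points for the genes higher in G-DP, and left of the AA/ZZ-DP mean for the genes lower in G-DP.

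The FGF-responsive transcription factor gene Etv5 (chromosome 16, 22381313 to 22439570) was among the called genes whose reading depended on Mc. It was at 101.4 and 110.3 FPKM in G-DP and at 32.3 and 21.5 FPKM in AA/ZZ-DP (difference 1.96 ± 0.41, adjusted p = 0.0276), and the groups did not overlap. Mc held 263.6 and 553.7 FPKM. With the median melanocyte share taken off each papilla library, the difference was 1.51 and no longer passed (adjusted p = 0.233). In the Sox2-GFP line Etv5 overlapped, at 39.1 and 25.6 FPKM in G/AA-DP and 34.5 and 38.2 FPKM in ZZ-DP. Dusp6, a phosphatase that damps ERK signalling downstream of FGF, was at 14.0 and 19.4 FPKM against 5.96 and 3.98 FPKM (1.57 ± 0.33, adjusted p = 0.0318). It was at 32.1 FPKM in Mc, and higher still in TAC (42.9 FPKM) and in the population labelled ORS (40.8 FPKM). Of the 14 FGF and MAPK feedback targets that were members, Etv5 and Dusp6 were called. In all, 6 of the 14 were higher without overlap, and none of the 6 passed the strict screen on the Mc level. Of all members 12.1% were higher without overlap. The share was 28.1% for members 2- to 8-fold higher in Mc than in AA/ZZ-DP and 86.3% for those 8- to 32-fold higher. Spry2 and Spry4, feedback inhibitors of the same pathway, had differences of -0.05 and -0.28. The list's median difference was 0.12, and 0.04 after the subtraction.

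On the ligand side of FGF signalling the values pointed lower, as they did for members low in Mc in general. Of the 11 FGF ligands and receptors that were members, 7 were lower without overlap and none was higher. Without overlap, 20.1% of all members and 48.1% of the 520 members over 8-fold lower in Mc were lower. None of the 11 was called (limma, 3 lower at an unadjusted p below 0.05), and the median difference was -0.49, the same as over those 520 members. Fgf10, a papilla ligand that acts on the epithelium, was at 50.6 and 73.4 FPKM in G-DP and at 123.4 and 165.4 FPKM in AA/ZZ-DP (-1.21 ± 0.50, adjusted p = 0.502). Fgf7, a ligand of the same epithelial receptor, was at 296.3 and 407.2 FPKM against 448.1 and 721.3 FPKM (-0.71 ± 0.58, adjusted p = 0.856). The receptor genes Fgfr1 and Fgfr2 were lower without overlap, with differences of -0.34 and -0.26, and neither passed the test.

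Genes lower in G-DP were fewer by the test. The melanocyte screen on this side kept a gene if its Mc mean was at or below its G-DP mean, so its reference group differs from that of the higher side. Genes that pass here are those that a mixture of AA/ZZ-DP and Mc RNA could bring down to the G-DP level. Passing, here and among the largest lower differences below, therefore does not set Mc RNA aside as it did on the higher side. Of all members with a higher mean log2 level in G-DP 36% passed the screen of the higher side, and of those with a lower one 47.7% passed the screen of this side. Of the 13 called lower, 8 passed it, all 8 with both G-DP values under 1 FPKM, and 4 of the 13 were listed at 0 in both G-DP libraries (Fxyd2, Cdk3-ps, Mir669g and Mir695). This count of 8 was 48 without the first G-DP library, 2 without the second and 0 without the second AA/ZZ-DP library. Tbx5 (chromosome 5, 119796514 to 119885220), a T-box transcription factor known for specifying the forelimb, was at 0.87 FPKM and listed at 0 in G-DP, and at 2.49 and 8.53 FPKM in AA/ZZ-DP (-2.08 ± 0.37, adjusted p = 0.0109). It was at 0.09 FPKM in Mc. In the Sox2-GFP line the libraries that include guard papilla were the higher ones. Tbx5 was at 1.86 and 2.57 FPKM in G/AA-DP and at 1.28 and 0.48 FPKM in ZZ-DP. The DP libraries, not split by hair type, were at 0.67 and 1.41 FPKM, below both AA/ZZ-DP libraries.

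Zfp804b, a zinc finger gene, was at 0.24 and 0.17 FPKM in G-DP and at 2.42 and 8.32 FPKM in AA/ZZ-DP (-2.23 ± 0.49, adjusted p = 0.0466), with Mc listed at 0. P2ry6, a receptor for extracellular nucleotides, was at 0.61 FPKM and listed at 0 against 2.97 and 3.16 FPKM (-1.68 ± 0.32, adjusted p = 0.0169). The groups were apart for both, although the G-DP levels are near the bottom of the scale. Tmem218, a gene of the primary cilium, was at 10 and 2.27 FPKM against 34.2 and 36.8 FPKM (-2.60 ± 0.50, adjusted p = 0.0191). It did not pass the screen of the lower side, since its Mc level of 21.8 FPKM was above G-DP. With the median melanocyte share taken off, its difference was -3.54 (limma, adjusted p = 0.0244). Of the 13 genes called lower, 9 were called again with that share taken off. Alkbh2, which repairs alkylated DNA, was at 0.41 and 0.39 FPKM against 4.01 and 6.70 FPKM (-2.15 ± 0.48, adjusted p = 0.0466). Its Mc libraries, at 5.30 and 0.94 FPKM, were also above G-DP, so it did not pass that screen either. With the median melanocyte share taken off, its difference was -2.50 (limma, adjusted p = 0.0255). Its levels in G/AA-DP (0.82 and 0.94 FPKM), ZZ-DP (1.05 and 1.64 FPKM) and DP (0.85 and 1 FPKM) were nearer to G-DP than to AA/ZZ-DP. Of the 13, 4 were higher and 2 lower in G/AA-DP than in ZZ-DP without overlap. Over all members, 1045 (8.32%) were higher and 1336 (10.6%) lower there. Between G/AA-DP and ZZ-DP limma called 1 of the 15052 genes tested (0.00664%), and 211 (1.4%) were at an unadjusted p below 0.05.

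With the same names left out, the 12 largest lower differences among screened genes included Rnf125, Osr1, Sfrp2, Ddit4l, Zfp804b, Blvrb, Igfbp3, Tbx5, Tagln3, Cldn9 and P4ha3, and of the 12 Zfp804b and Tbx5 were called. Sfrp2, a secreted Wnt modulator, was at 34.3 and 25.5 FPKM in G-DP and at 145.9 and 155.9 FPKM in AA/ZZ-DP (-2.31 ± 0.71, adjusted p = 0.251). The replicates of each group lay close together here, but other papilla libraries spread from 6.86 FPKM (first G/AA-DP) to 141.2 FPKM (first DP). Igfbp3, which binds insulin-like growth factors, behaved alike, with 27.2 and 18.9 FPKM against 100.2 and 104.3 FPKM (-2.12 ± 0.77, adjusted p = 0.403) and 7.88 to 162.5 FPKM in the other papilla libraries. Osr1, an odd-skipped transcription factor of mesenchyme, was at 5.14 and 2.22 FPKM against 19.3 and 23.4 FPKM (-2.32 ± 0.69, adjusted p = 0.214). P4ha3, which modifies collagen, was at 1.49 FPKM and listed at 0 in G-DP against 4.15 and 6.30 FPKM (-1.96 ± 0.52, adjusted p = 0.135), and its Mc libraries were listed at 0. In the Sox2-GFP line all 12 were lower in the second ZZ-DP library than in the first. Of the 30 dermal papilla genes 14 were higher there, and of the 12567 members 5998. Of the 12, Tbx5 alone was separated between G/AA-DP and ZZ-DP, in the opposite direction.

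The question left for papilla genes was how much lower they stood than the melanocyte share alone would place them. All 30 genes of a dermal papilla list were members, 27 of them with at least 10 FPKM in AA/ZZ-DP, and 25 had a Mc mean of at most 5 FPKM. In G-DP 28 of the 30 had a lower mean log2 level, 19 were lower without overlap (against 20.1% of all members) and none was higher without overlap. None was called by limma (8 at an unadjusted p below 0.05, the smallest adjusted p being 0.118). The median difference was -0.53, against -0.08 over the members and -0.49 over the 520 members over 8-fold lower in Mc, of which 48.1% were lower without overlap. The median papilla gene stood at 72.2% of its AA/ZZ-DP mean in the first G-DP library and at 60.2% in the second, and the median of those 520 members at 77.3% and 62.5%. If the median melanocyte share were foreign RNA and nothing else differed, 91.1% and 89.2% would be left, and 21 of the 30 genes were below that in both G-DP libraries. The median of the 8152 members within 2-fold in Mc was itself at 91.3% and 93.7% of AA/ZZ-DP. Values were thus lower also where Mc and AA/ZZ-DP levels are close, which the mark of 91.1% and 89.2% does not allow for. With the median share taken off, the list's median difference was -0.39, and with the highest marker share -0.28.

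**Figure D5:**
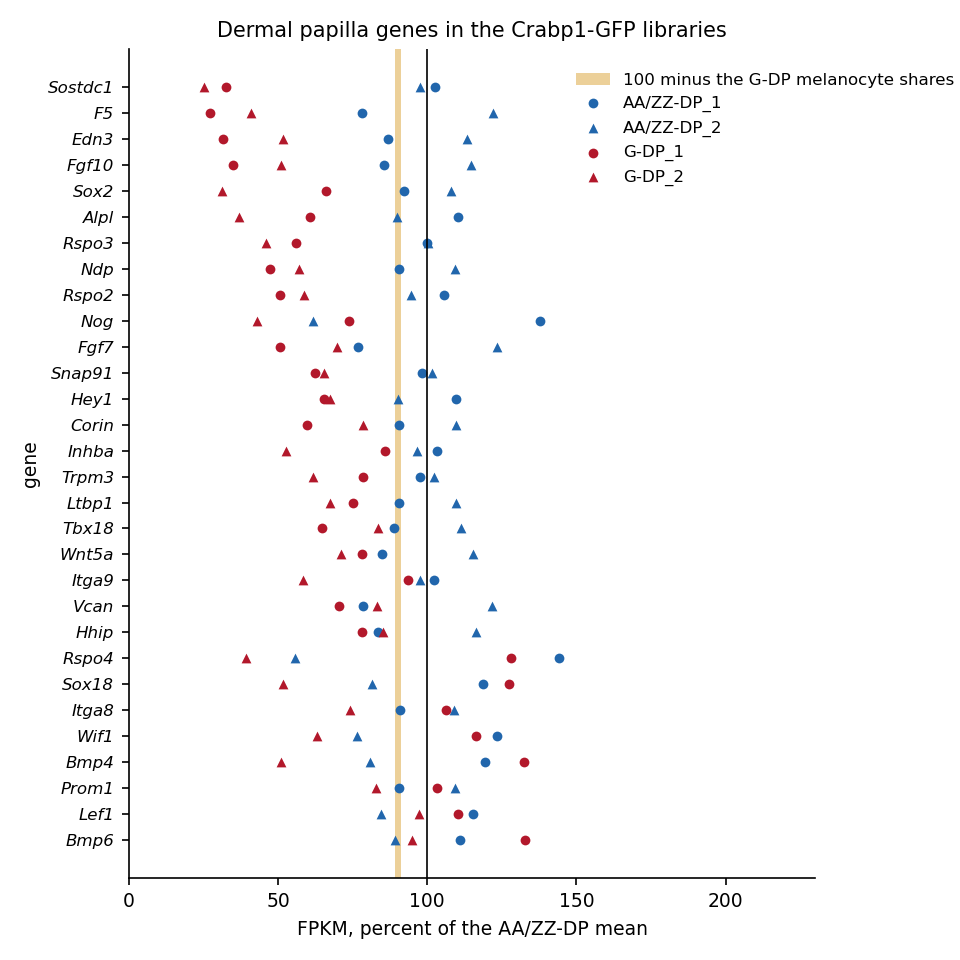
The 30 dermal papilla genes in the 4 compared libraries, as FPKM in percent of the AA/ZZ-DP mean (horizontal axis). Genes are ordered by the ratio of their G-DP mean to their AA/ZZ-DP mean. Most red G-DP points lie left of the band at 89.2% to 91.1%, which is what the median melanocyte shares would leave. The band does not allow for members within 2-fold in Mc, whose medians were 91.3% and 93.7% in the first and second G-DP library. The first G-DP library lies above 100% for several genes at the bottom, such as Bmp6, Bmp4 and Rspo4.

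The secreted signals of the list were spread over this range. Edn3 (chromosome 2, 174760619 to 174784042), an endothelin made by the papilla that acts on melanocytes through their receptor Ednrb, was at 101.6 and 167.2 FPKM in G-DP and at 281.0 and 366.3 FPKM in AA/ZZ-DP. The difference was -1.29 ± 0.33 (adjusted p = 0.118, and 0.0206 with a pseudocount of 5 FPKM in place of 1), and the 6 other papilla libraries were between 258.8 and 411.6 FPKM, all above G-DP. Sostdc1, an antagonist of BMP and Wnt signals, was at 269.7 and 208.4 FPKM against 845.9 and 803.3 FPKM (-1.79 ± 0.74, adjusted p = 0.496). Fgf10 is given above. The Wnt-enhancing R-spondins split: Rspo3 was at 281.7 and 231.9 FPKM against 502.6 and 504.6 FPKM (-0.98 ± 0.43, adjusted p = 0.543) and Rspo2 at 47.0 and 54.5 FPKM against 97.9 and 87.6 FPKM. Rspo4 overlapped, at 455.7 and 139.6 FPKM against 512.4 and 198.3 FPKM. The BMP ligands also overlapped, with Bmp6 at 197.3 and 141.1 FPKM against 164.7 and 132.5 FPKM and Bmp4 at 381.9 and 147.2 FPKM against 344.5 and 232.9 FPKM.

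Other genes of the papilla list were not called either. The serine protease Corin, a surface marker of the papilla that modulates coat colour, was at 378.0 and 496.1 FPKM in G-DP and at 571.7 and 693.4 FPKM in AA/ZZ-DP (-0.54 ± 0.32, adjusted p = 0.719). Alkaline phosphatase Alpl, the classical papilla stain, was at 189.6 and 115.0 FPKM against 344.6 and 281.1 FPKM (-1.07 ± 0.44, adjusted p = 0.490). The coagulation factor gene F5 was at 45.8 and 68.9 FPKM against 131.0 and 204.7 FPKM (-1.53 ± 0.67, adjusted p = 0.538). All 3 were lower in both G-DP libraries with no overlap. The proteoglycan Vcan overlapped at 630.2 and 743.2 FPKM against 701.8 and 1088 FPKM. Sox2, the transcription factor that names the other sorting line, was at 4.39 and 2.08 FPKM against 6.13 and 7.20 FPKM (-0.91 ± 0.64, adjusted p = 0.8). In the Sox2-GFP line its level did not follow the labels: libraries labelled G/AA-DP were listed at 0 and at 4.81 FPKM, and libraries labelled ZZ-DP at 4.87 and 0.09 FPKM, so directions drawn from that line carry this doubt.

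Signals that the papilla sends to melanocytes were examined as a list of 10, of which 7 were members. Of the 7, 5 were lower without overlap, none was higher without overlap and none was called (limma, 4 lower at an unadjusted p below 0.05), with a median difference of -0.98. Besides Edn3 and Corin these were Hgf, Nrg1 and Fgf2. Beside this count, 20.1% of all members and 48.1% of those over 8-fold lower in Mc were lower without overlap. Hgf, the ligand of the receptor Met, was at 0.80 and 0.85 FPKM against 3.95 and 3.78 FPKM (-1.41 ± 0.35, adjusted p = 0.0924), and Mc was listed at 0. Fgf2, a mitogen of melanocytes, was at 7.84 and 7.62 FPKM against 25.7 and 10.2 FPKM (-0.98 ± 0.44, adjusted p = 0.553). Kitl, the ligand of Kit, overlapped at 4.86 and 13.2 FPKM against 2.75 and 5.07 FPKM. The receptor genes moved the other way together with the melanocyte markers: Kit is given above and Ednrb, the receptor of Edn3, was at 27.8 and 56.4 FPKM in G-DP, 9.05 and 7.98 FPKM in AA/ZZ-DP and 529.8 FPKM in Mc (2.1 ± 0.47, adjusted p = 0.0466). With the median melanocyte share taken off, Ednrb turned to -2.89, since that share of its Mc level was above what G-DP held.

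Other pathways gave few or no calls. For scale, 20.1% of all members were lower and 12.1% higher without overlap. Of the members over 8-fold lower in Mc 48.1% were lower without overlap, and of those 2- to 8-fold lower 33%. Among 14 secreted Wnt modulators that were members, 5 were lower without overlap (Rspo2, Rspo3, Sfrp2, Sostdc1 and Ndp) and 1 higher (Dkk3), none called (limma, 5 lower and 1 higher at an unadjusted p below 0.05). Among 28 BMP and TGF-beta genes, 8 were lower without overlap, none higher and none called (limma, 2 lower at an unadjusted p below 0.05). Bmp3, a BMP family ligand, was at 50.6 and 41.4 FPKM against 82.2 and 97.0 FPKM (-0.95 ± 0.35, adjusted p = 0.426), and both G-DP values were below all 4 libraries of the Sox2-GFP line (80.3 to 107.5 FPKM). Of 12 T-box and limb-type factors, Tbx5 was called. Tbx15, which patterns dorsal coat colour, was at 50.9 and 37.9 FPKM against 74.8 and 97.9 FPKM (-0.95 ± 0.49, adjusted p = 0.641). Tbx3 and Tbx2, also made by melanocytes, were higher without overlap and were at 16.6 and 12.7 FPKM in Mc. Among 24 cell cycle genes and 23 immediate early genes none was called (limma, 1 higher and 1 lower, and 1 higher and 0 lower, at an unadjusted p below 0.05), with median differences of 0.19 and -0.15.

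Matrix genes of fibroblasts showed a like direction with no call. The shares over all members were 20.1% lower and 12.1% higher without overlap, and 48.1% lower over members over 8-fold lower in Mc. Of 21 fibrous matrix genes that were members, 8 were lower and 2 higher without overlap, and none was called (limma, 2 lower at an unadjusted p below 0.05), with a median difference of -0.27. Mfap4, a microfibril-associated protein, was at 60.8 and 79.8 FPKM in G-DP and at 171.9 and 168.9 FPKM in AA/ZZ-DP (-1.28 ± 0.43, adjusted p = 0.338). Col14a1, a fibril-associated collagen, was at 44.9 and 47.5 FPKM against 98.7 and 86.8 FPKM (-0.99 ± 0.41, adjusted p = 0.496). Both groups had close replicates for these genes. Fn1, fibronectin, was on the higher side at 32.2 and 37.5 FPKM against 10.6 and 24 FPKM (1.07 ± 0.59, adjusted p = 0.688), and it averaged 154.0 FPKM in DF. Fibroblast markers summed to 868.5 and 990.9 FPKM in G-DP, 1091.2 and 1755.2 FPKM in AA/ZZ-DP and 4518.4 FPKM in DF.

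The following 4 genes of other signalling families were not called. Wnt5b, a Wnt ligand, was at 8.96 and 11.1 FPKM in G-DP and at 5.76 and 2.74 FPKM in AA/ZZ-DP (1.13 ± 0.48, adjusted p = 0.514), with 0.30 FPKM in Mc. In the Sox2-GFP line it ranged from 1.89 to 10.2 FPKM, both ends being G/AA-DP libraries. Eda, the ectodysplasin ligand whose pathway is needed for guard hair formation, was at 11.8 and 13.7 FPKM in G-DP and at 25.7 and 29.1 FPKM in AA/ZZ-DP (-1.05 ± 0.40, adjusted p = 0.44), and the 4 libraries of the Sox2-GFP line were at 10.3 to 18.8 FPKM, overlapping G-DP and below AA/ZZ-DP. Tcf7, a Wnt target and effector, was at 21.1 and 23.0 FPKM against 10.2 and 3.78 FPKM (1.65 ± 0.47, adjusted p = 0.188) and at 75.4 FPKM in Mc. The chemokine gene Cxcl10 was at 1.6 and 9.59 FPKM in G-DP and listed at 0 in both AA/ZZ-DP libraries, with 1.62 to 5.20 FPKM in the Sox2-GFP line.

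Genes of the hair matrix and inner root sheath, which surround the papilla, divided between both directions. The shares over all members were 12.1% higher and 20.1% lower without overlap. Of 13 matrix and hair lineage markers, 4 were higher and 2 lower without overlap, and none was called (limma, 0 higher and 1 lower at an unadjusted p below 0.05). Krt35, a hair shaft keratin, was at 17.6 and 28.6 FPKM against 10.5 and 8 FPKM (1.21 ± 0.74, adjusted p = 0.739) and at 301.0 FPKM in TAC. Krt28, a keratin of the inner root sheath, was at 17.3 and 12.7 FPKM against 7.97 and 7.16 FPKM (0.89 ± 0.61, adjusted p = 0.784). The sums of the list overlapped, at 390.0 and 505.4 FPKM in G-DP and 428.0 and 551.5 FPKM in AA/ZZ-DP.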

How the data were processed

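RNA from sorted cells was amplified and sequenced in 28 libraries, 2 for each of 14 populations. The authors deposited FPKM per gene, made with TopHat2 2.0.3, Bowtie2 and Cufflinks 2.1.1 on mm10, per the submitters' processing notes. The files used here hold no counts, so depth is unknown and no counting interval is given. Repeated gene rows were dropped. Values were taken as log2(FPKM + 1) for genes with at least 1 FPKM in 2 of 28 libraries and fitted with limma 3.58.1 in R 4.3.3 (1 mean per population, all libraries, trended variance), with Benjamini-Hochberg adjustment over all 15052 genes. The fit was tested on simulated data.

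The melanocyte share of a library is the median of 16 markers' FPKM as a percentage of their Mc mean. Named genes are the gate genes and Crabp1, Etv5, Tbx5 and Kit, the largest called differences, the 12 largest screened differences in each direction, and up to 4 members of each list without overlap. Of these the text describes some, and genes outside the rule were named after their values were seen. The members and lists were chosen with earlier results of these data known. RefSeq positions matched 11612 members. Alternatives covered the filter, pseudocount, libraries fitted, quantile normalization, melanocyte subtraction, replicate block and each replicate left out. Some genes are not reported here.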

Additional observations from a re-analysis of the deposited data

How the results depend on the processing

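The counts of genes called rested on the spread pooled over all 28 libraries. Against 62 members called higher and 13 lower, the fit on the 10 papilla libraries called 4 (Erbb4, Grik1, Mir669i and Rn45s) and 0, and the fit on the 4 compared libraries 0 and 2. A pseudocount of 0.1 gave 23 and 2, a pseudocount of 5 gave 7 lower, and a filter of 5 FPKM gave 4 lower. Subtracting melanocyte RNA at the median marker share gave 26 higher, and at each library's highest marker share, a setting chosen after the data were seen, 29 higher and 113 lower. Leaving out each replicate gave 13 to 120 higher and 0 to 110 lower. Of called genes that passed the strict screen (3 higher, 8 lower), the higher count was 0 in the fit on the 4 compared libraries, 7 with quantile normalization, 11 with the highest share subtracted and 2 to 23 with 1 replicate left out. The lower count was 2 with the filter of 5 FPKM, 0 in the fit on the 10 papilla libraries, 2 in the fit on the 4 compared libraries, 5 with the median share subtracted, 0 with a pseudocount of 0.1, 13 with the replicate block and 0 to 48 with 1 replicate left out. The median of the 30 dermal papilla genes (-0.53), whose alternatives were also chosen after the data were seen, was -0.28 with the highest share subtracted and -0.72 to -0.43 with 1 replicate left out. The replicate block gave 80 higher and 18 lower and called Edn3 (adjusted p = 0.0352), while Zfp804b (0.0547), Alkbh2 (0.0539), Ednrb (0.0553) and Mlana (0.0551) were no longer called (limma, adjusted p). The labels do not say what a shared number marks, and same-numbered libraries' deviations from their group means correlated at 0.283. Of 89 genes checked, 33 were called and 0 of these kept the call in every alternative, while 10 others passed in at least 1. Direction changed for 6. With 1 replicate left out, Lef1 ranged from -0.15 to 0.29, Spry2 from -0.19 to 0.09, Rspo4 from -1.19 to 0.51, Bmp6 from -0.07 to 0.42 and Bmp4 from -0.94 to 0.43. With melanocyte RNA subtracted, Spry2 was 0.00 (median share) and 0.04 (highest share), Bmp4 0.00 (highest share) and Ednrb -2.89 (median share). The cause was not tested, except that the fits on fewer libraries hold fewer samples by construction. Depth is unknown, so limits from counting could not be set.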
